A study of Homo sapiens with 6 samples.

Results

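Cathepsins and the other hydrolases of the lysosome were read in PANC-1 cells treated with anlotinib. The members were fixed by name: 39 genes for cathepsins, glycosidases, sulfatases, lipid hydrolases and luminal cofactors, together with every probe set that the array annotation gives to exactly 1 of them. This gave 119 probe sets, all of which were tested, among 39063 tested probe sets and 15253 genes in all. Affymetrix PrimeView arrays, which read an mRNA mostly near its 3′ end, were hybridized with total RNA from 3 samples given anlotinib at 5.535 μM and 3 samples given DMSO, the solvent, each for 48 h. PANC-1 is an established line from a human pancreatic ductal carcinoma, and anlotinib blocks several receptor tyrosine kinases. All 6 samples are of this 1 line, 1 dose and 1 time, and the labels do not say whether the 3 replicates were separate cultures, so the p-values measure only the spread between these samples. Values are log2 signals, on which a difference of 1 is a 2-fold change.

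Lysosomal hydrolases take proteins, glycans and lipids apart in the acid lumen of the lysosome. Most are made as glycoproteins in the endoplasmic reticulum, receive a mannose 6-phosphate tag in the Golgi and are carried to the lysosome by receptors for that tag, where many are cut from an inactive proenzyme to the active form. Many of their genes carry a CLEAR element, an E-box with the core CACGTG that the factors TFEB and TFE3 bind when lysosomes are under load. In pancreatic ductal tumours, cathepsins are known as peptidases that act both in the lysosome and, once secreted, on the matrix around the cells.

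Because CLEAR elements are the sequence feature these genes are best known to share, the promoters were read for it first. Windows of 300 bases, from 250 before to 50 after an annotated start (RefSeq, build GRCh38.p14), were matched for 27 of the 39 members, with 36 windows in all; the 12 not matched were HEXA, ARSA, ASAH1, MANBA, LGMN, CTSS, CTSK, CTSB, NAGLU, SGSH, CTSO and PSAP. CACGTG, which reads the same on both strands, was present in 8 of the 27 members (29.6%), against 8.77% of 27305 genes and 7.26% of 35116 windows in the table. The 8-base form TCACGTGA, which contains CACGTG, was present in 4 of the 27 members (14.8%), GALNS, SCPEP1, GAA and CTSA, against 1.18% of genes and 0.98% of all windows. The following stretches show the core in capitals with its flanks for 3 members that were higher with anlotinib (NEU1, CTSA and CTSD), 3 that were lower (CTSF, GALNS and SCPEP1) and 2 that did not pass the test (GAA and ARSB). A further CACGTG of CTSA stands in lower case near the end of its line.
NEU1, chr6:31862922-31862967, minus strand: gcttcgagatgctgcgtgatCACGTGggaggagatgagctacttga
CTSA, chr20:45891273-45891318, plus strand: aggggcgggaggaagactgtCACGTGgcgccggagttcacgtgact
CTSD, chr11:1763949-1763994, minus strand: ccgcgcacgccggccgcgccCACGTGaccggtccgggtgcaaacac
CTSF, chr11:66568632-66568677, minus strand: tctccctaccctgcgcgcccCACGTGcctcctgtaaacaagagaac
GALNS, chr16:88857096-88857141, minus strand: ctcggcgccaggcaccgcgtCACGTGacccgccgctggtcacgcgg
SCPEP1, chr17:56978084-56978129, plus strand: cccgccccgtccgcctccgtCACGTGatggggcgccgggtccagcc
GAA, chr17:80101530-80101575, plus strand: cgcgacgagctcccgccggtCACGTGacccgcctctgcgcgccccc
ARSB, chr5:78986093-78986138, minus strand: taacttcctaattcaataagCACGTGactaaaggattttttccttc
GALNS, GAA and CTSF each hold a further core that is not shown. The 8 members with a core thus fell on both sides of the comparison, and a match is only a description of these letters. The related form TCATGTGA, searched on both strands (TCACATGA), was present in PPT1, GALC and, on both strands, TPP1. This was 11.1% of the 27 members, against 1.24% of genes and 1% of all windows. CTSL had the strongest increase below at the probe set with the highest mean signal of each gene, and IDS at any probe set. In the first of these readings NPC2 (0.96) and NEU1 (0.84), the latter shown above with a core, rose more than IDS (0.74). CTSL and IDS are shown with the whole window and the first 50 transcribed bases in capitals, since it holds none of the 3 forms. TPP1 is shown with its pair of opposed TCATGTGA matches in capitals. The windows of NPC2 and GLA held none of the 3 forms either, and HEXA had no window. Among the matched members without CACGTG, 9 were higher with anlotinib, 6 were lower and 4 did not pass the test. Only exact matches inside the windows were counted, so altered or more distant sites were not read.
CTSL, chr9:87725869-87726168, plus strand: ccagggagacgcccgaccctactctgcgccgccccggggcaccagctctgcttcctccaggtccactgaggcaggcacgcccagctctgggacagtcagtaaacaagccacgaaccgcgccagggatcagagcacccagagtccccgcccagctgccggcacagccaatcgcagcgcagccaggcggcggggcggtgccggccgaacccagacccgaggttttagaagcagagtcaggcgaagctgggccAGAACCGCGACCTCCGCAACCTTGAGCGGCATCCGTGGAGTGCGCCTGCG
IDS, chrX:149505257-149505556, minus strand: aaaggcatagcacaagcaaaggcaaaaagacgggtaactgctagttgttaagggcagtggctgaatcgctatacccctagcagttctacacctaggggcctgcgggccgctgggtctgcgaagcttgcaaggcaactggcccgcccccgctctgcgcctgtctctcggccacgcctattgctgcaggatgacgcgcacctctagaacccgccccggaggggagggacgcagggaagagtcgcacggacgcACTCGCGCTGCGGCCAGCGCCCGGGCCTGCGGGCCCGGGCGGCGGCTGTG
TPP1, chr11:6619373-6619672, minus strand: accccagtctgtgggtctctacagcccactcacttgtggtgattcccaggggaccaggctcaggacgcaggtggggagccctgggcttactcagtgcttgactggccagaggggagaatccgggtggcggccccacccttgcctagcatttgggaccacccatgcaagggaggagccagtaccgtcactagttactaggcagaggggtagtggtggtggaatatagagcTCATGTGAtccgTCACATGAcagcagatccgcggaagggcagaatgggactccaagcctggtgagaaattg

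The arrays were alike in scale, with medians between 7.70 and 7.76, and the 3′ minus 5′ signal of the GAPDH controls lay between -0.38 and -0.31 on all 6. The line was checked against fixed markers. Of 5 ductal epithelial markers, KRT8, KRT18 and KRT19 had log2 signals of 14.12, 14.59 and 13.48 in DMSO. KRT7 and EPCAM were far dimmer, at 8.53 and 7.32, where the median of all genes was 8.11. All 5 fell with anlotinib, their summed signal moving from 15.73 on each DMSO array to 15.10 to 15.12. Of 10 leukocyte and macrophage markers 7 were measured and 2 rose, so that their summed signal went from 9.28 to 9.37 in DMSO to 10.23 to 10.33 with anlotinib. This followed CD68, itself a lysosomal glycoprotein, which rose from 7.72 to 9.68; without it the sum was 8.72 to 8.82 in DMSO and 8.70 to 8.76 with anlotinib. ITGAM was the other and rose from 4.67 to 5.31, where the dimmest of the tested probe sets had a mean of 4.41. The second probe set of ITGAM gave a log2 fold change of 0.01. The markers CD14, CSF1R, AIF1 and FCER1G lay between 5.68 and 6.27 in DMSO, and TYROBP lay higher, at 7.25. None of these passed the test, and PTPRC, CD163 and LYZ were not analysed here. Fibroblast and stellate markers (5 of 10 measured, 4 lower) summed to 8.01 to 8.13 in DMSO and 7.79 to 7.91 with anlotinib, endothelial markers (7 measured, 1 higher, 2 lower) to 9.11 to 9.24 and 9.64 to 9.71, the higher one being ESAM at 8.00 and 8.99, and acinar markers (3 of 5 measured, 1 lower) to 7.55 to 7.76 and 7.49 to 7.70. The second probe set of ESAM gave a log2 fold change of -0.02. The part of these shifts in the results below was not tested.

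The hydrolases did not move together. At the probe set with the highest mean signal of each gene, here called the brightest, 16 of 39 members rose and 13 fell at an adjusted p under 0.05 (limma, with Benjamini-Hochberg adjustment across the whole table), where 25.4% of all genes rose and 29.7% fell. Every anlotinib array lay above every DMSO array for 16 members (28.6% of all genes) and below for 14 (33.5% of all genes). The median log2 fold change of the members was 0.08, beside -0.04 for all genes. Changes of 2-fold or more, which together with the adjusted p make a call here, were few: at any probe set 5 members were called higher, CTSL, IDS, NPC2, GLA and HEXA (3.47% of all genes), and at the brightest probe set only CTSL (2.1%). Counts at any probe set grow with the number of probe sets per gene. The members had 119 for 39 genes, and all genes had 35858 for 15253. The shares at any probe set, here and below, are thus not a like background, while those at the brightest are. Lower calls numbered 0 in limma both at any probe set (2.58% of all genes) and at the brightest (1.91%), although 14 members were lower at an unadjusted p under 0.05 (32.3% of all genes). With a limit of 1.5-fold in place of 2-fold, 4 members were higher (7.37% of all genes) and 6 lower (7.71%) at the brightest probe set, and 9 were higher (11.6%) and 7 lower (10.4%) at any. In limma's treat, which tests for more than 1.2-fold, 7 members were higher (11.9% of all genes) and 8 lower (13.1%) at the brightest probe set, and 10 were higher (17.2%) and 9 lower (16.4%) at any. In these bulk samples, less RNA per cell and fewer cells that carry it cannot be told apart.

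**Figure D1:**
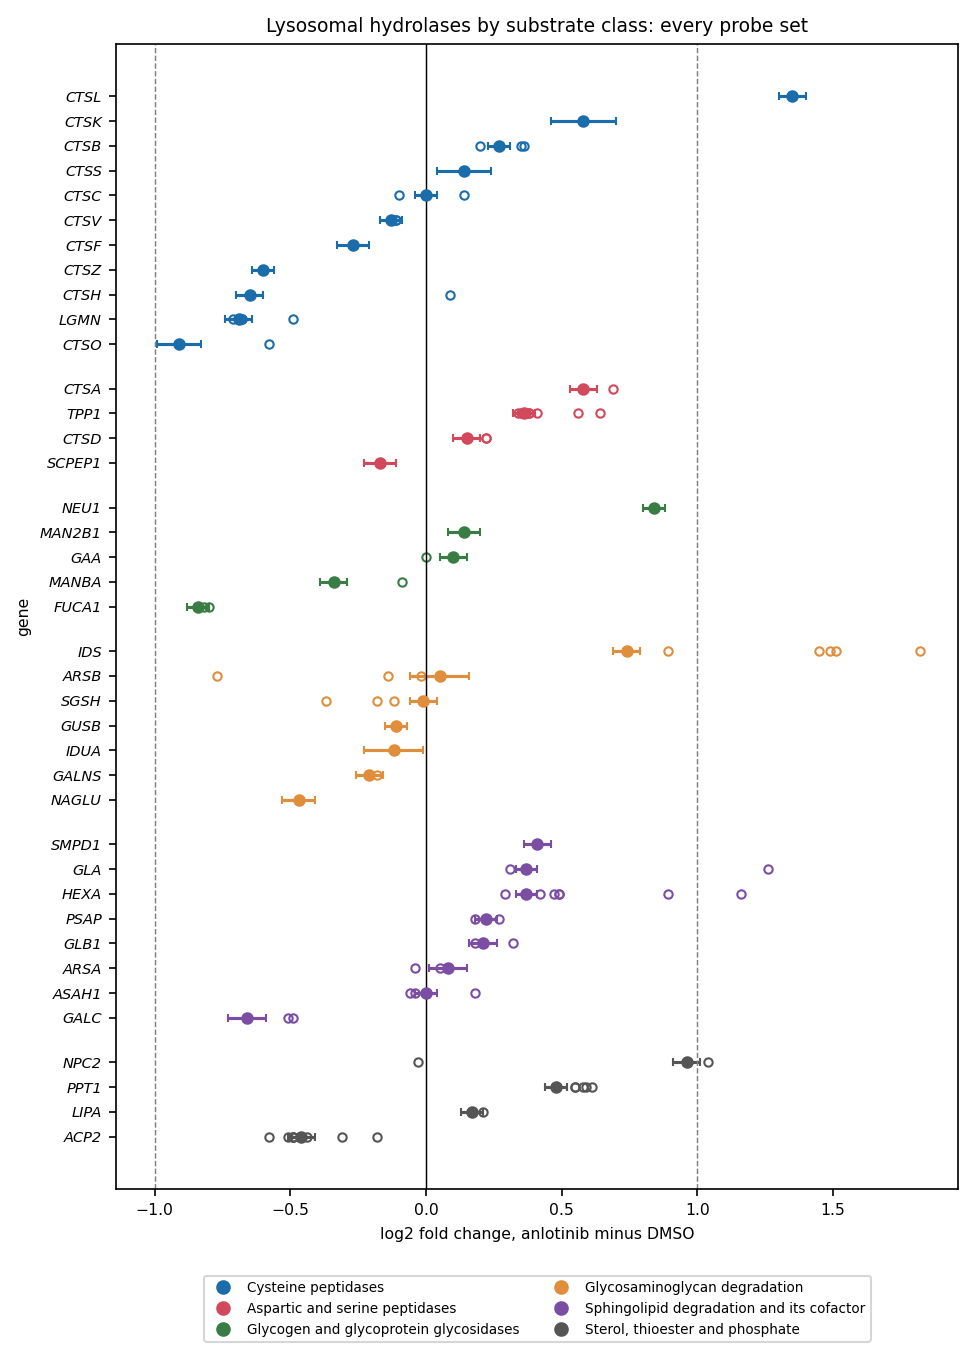
log2 fold change (x axis, anlotinib minus DMSO) of the 39 genes (y axis) by substrate class; filled points are the brightest probe set with its standard error from limma (3 arrays a group), open points the other probe sets of the gene, and dashed lines mark 2-fold. CTSL stands at 1.35 and CTSO at -0.91, and the cysteine peptidases and the glycosidases spread to both sides of 0.

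The cysteine peptidases, the papain-like cathepsins and legumain, split. Of 11 members 3 rose, 6 fell and 2 did not pass the test, with a median log2 fold change of -0.13. CTSL, an endopeptidase that degrades most proteins delivered to the lysosome, had the strongest increase of all members at the brightest probe set. Its only probe set, 11725332_a_at, read 9.65, 9.57 and 9.63 in DMSO and 10.91, 10.99 and 10.99 with anlotinib. The groups did not overlap, and the log2 fold change was 1.35 ± 0.05 (SE), or 2.54-fold (adjusted p = 1.68e-06). CTSV, a close relative of CTSL in sequence, went the other way by little, at -0.13 ± 0.04 (adjusted p = 0.0313).

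CTSK, the collagen-degrading cathepsin best known from osteoclasts, read 6.55, 6.08 and 6.28 in DMSO and 6.80, 6.88 and 6.97 with anlotinib. It rose by 0.58 ± 0.12 (adjusted p = 0.00426), with the widest spread in DMSO among the members that rose. CTSB, an endopeptidase that also trims dipeptides from the carboxyl end, rose by 0.27 ± 0.04 at the brightest of 4 probe sets and by 0.20 to 0.36 over all 4.

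The 6 members that fell were CTSO, LGMN, CTSH, CTSZ, CTSF and CTSV. CTSO, whose substrates are little known, read 6.82, 6.97 and 6.82 in DMSO and 5.89, 6.11 and 5.88 with anlotinib. All 3 treated arrays were lower, by 0.91 on the log2 scale (1.88-fold, SE 0.08, adjusted p = 5.57e-05), and its other probe set fell too, at -0.58. LGMN, the asparaginyl endopeptidase that cuts several cathepsins from their single-chain to their two-chain form, read 11.02, 11.04 and 10.98 in DMSO and 10.29, 10.27 and 10.39 with anlotinib. All 6 probe sets of LGMN fell, between -0.71 and -0.49, and the brightest gave -0.69 ± 0.05 (adjusted p = 2.15e-05).

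CTSH, an aminopeptidase, read 9.82, 9.83 and 9.74 in DMSO and 9.16, 9.07 and 9.22 with anlotinib, a log2 fold change of -0.65 ± 0.05 (adjusted p = 4.68e-05). Its second probe set was dim, between 4.91 and 5.29 on all arrays, and did not pass the test at 0.09. CTSZ, a carboxypeptidase also called cathepsin X, read 8.82, 8.89 and 8.85 in DMSO and 8.29, 8.25 and 8.23 with anlotinib, at -0.60 ± 0.04 (adjusted p = 2.26e-05). For both genes every treated array was below every DMSO array. CTSF fell by 0.27 ± 0.06 on the log2 scale. CTSC, the dipeptidyl peptidase that activates granule serine proteases of leukocytes, was nearest to 0: it read 11.28, 11.30 and 11.27 in DMSO and 11.26, 11.28 and 11.32 with anlotinib, and the groups overlapped. CTSS, which cuts the invariant chain of MHC class II in antigen-presenting cells, was dim at 5.27 in DMSO and 5.41 with anlotinib and did not pass the test.

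**Figure D2:**
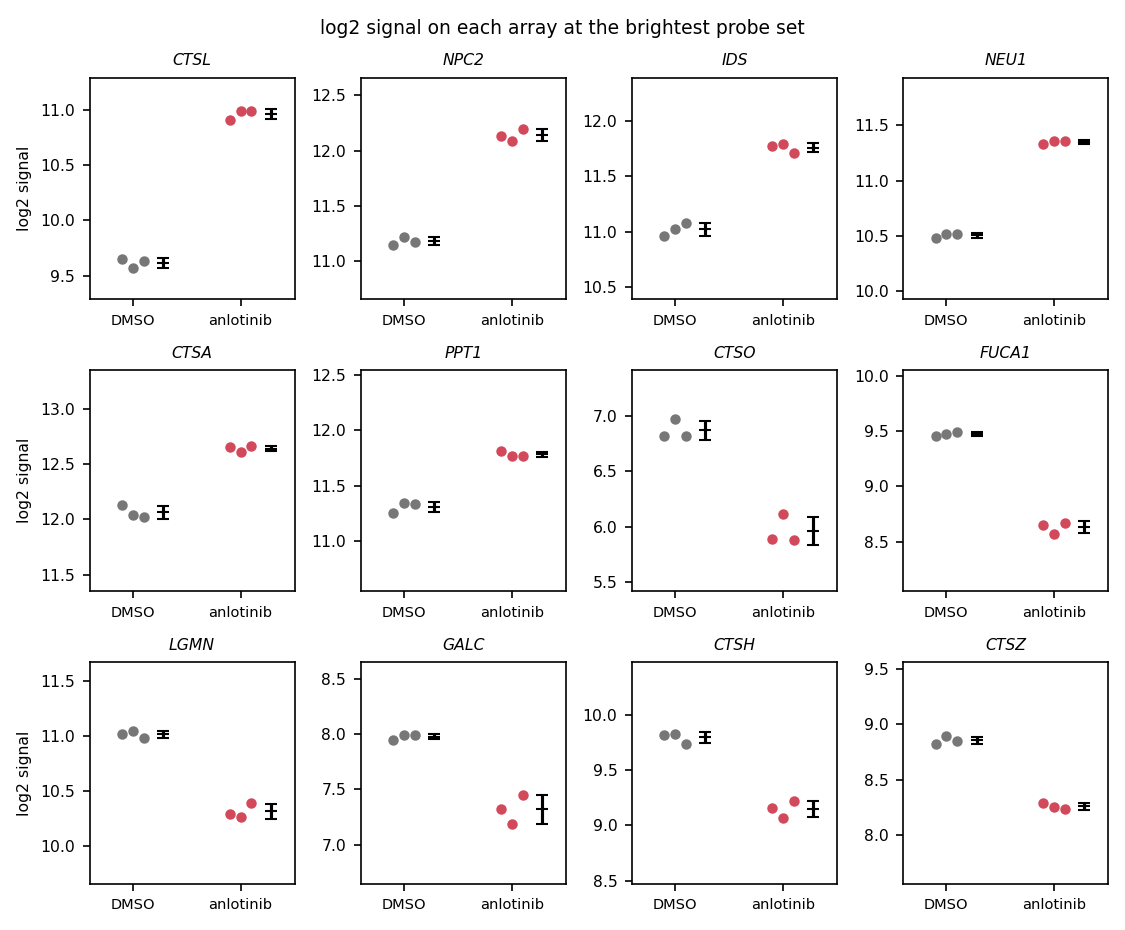
log2 signal (y axis) of 12 hydrolase genes at the brightest probe set on each of the 3 DMSO and 3 anlotinib arrays (points, replicates 1 to 3 from left to right), with the mean and SD beside each group; every panel spans 2 log2 units around its own midpoint. In the 6 genes from CTSL to PPT1 all treated arrays lie above all DMSO arrays, and in the 6 from CTSO to CTSZ all lie below.

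Among the aspartic and serine peptidases 3 of 4 members rose and 1 fell, with a median of 0.26. CTSA, a serine carboxypeptidase that also holds NEU1 and GLB1 together in a complex and shields them from degradation, read 12.13, 12.04 and 12.02 in DMSO and 12.65, 12.61 and 12.66 with anlotinib. It rose by 0.58 ± 0.05 (1.49-fold, adjusted p = 4.41e-05), and its other probe set by 0.69. TPP1, which removes tripeptides from the amino end and is lost in a childhood form of neuronal ceroid lipofuscinosis, rose at all 9 of its probe sets, by 0.34 to 0.64, and at the brightest from 11.43, 11.48 and 11.45 to 11.82, 11.78 and 11.84. Every array of TPP1 kept to its group. CTSD, the main aspartic peptidase of the lysosome, rose by only 0.15 ± 0.05 (adjusted p = 0.0277), from 11.98, 11.86 and 11.91 to 12.03, 12.11 and 12.06. SCPEP1, a serine carboxypeptidase related to CTSA, was lower at -0.17 ± 0.06 (adjusted p = 0.0423). CTSD, SCPEP1 and, above, CTSV missed the threshold when certain single arrays were left out, with adjusted p up to 0.0911, 0.125 and 0.088.

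The 5 enzymes of glycogen and glycoprotein glycans contained one of the strongest increases and one of the strongest decreases of the brightest probe sets. NEU1, the lysosomal sialidase, read 10.48, 10.52 and 10.52 in DMSO and 11.33, 11.36 and 11.36 with anlotinib. The gap between the groups was wide beside the SD of 0.02 within each, and NEU1 rose by 0.84 ± 0.04 (1.79-fold, adjusted p = 4.08e-06). FUCA1, which removes fucose, read 9.45, 9.47 and 9.49 in DMSO and 8.65, 8.57 and 8.67 with anlotinib. It fell by the same amount, -0.84 ± 0.04 (adjusted p = 7.44e-06), and its other probe sets gave -0.82 and -0.80. MANBA, the beta-mannosidase, fell by 0.34 ± 0.05 on the log2 scale at the brightest probe set, while its dimmer one read -0.09 and did not pass. MAN2B1, the alpha-mannosidase, and GAA, the acid alpha-glucosidase that breaks down glycogen, did not pass the test at 0.14 ± 0.06 and 0.10 ± 0.05. GAA read 7.17, 7.13 and 7.24 in DMSO and 7.26, 7.23 and 7.36 with anlotinib, so its groups overlapped. Of the members of the CTSA complex, NEU1 thus rose by 0.84, CTSA by 0.58 and GLB1 by 0.21 at the brightest probe set. NEU1 rests on 1 probe set, and the difference between these values was not tested.

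Of the 7 enzymes that take apart glycosaminoglycans, the sulfated chains of matrix and cell-surface proteoglycans, 1 rose, 2 fell and 4 did not pass the test (median -0.11). IDS, which removes sulfate from the iduronate of heparan and dermatan sulfate, rose at all 6 of its probe sets and was called at 4 of them. Its probe set 11732133_a_at read 10.09, 10.11 and 10.11 in DMSO and 11.90, 11.97 and 11.89 with anlotinib, a log2 fold change of 1.82 ± 0.04 (3.53-fold, adjusted p = 5.88e-07). The other called probe sets gave 1.51 (11726881_a_at), 1.49 (11760820_at) and 1.45 (11732132_a_at). The uncalled ones gave 0.89 (11747201_a_at) and, at the brightest (11732131_x_at), 0.74 ± 0.05, from 10.96, 11.02 and 11.08 to 11.77, 11.79 and 11.71. The suffix of this brightest probe set marks probes that may bind other transcripts as well. The direction of IDS was therefore the same at every probe set, while its size ranged from 1.67-fold to 3.53-fold.

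The further enzymes that work on heparan sulfate did not follow IDS. NAGLU, which removes its N-acetylglucosamine, fell from 8.08, 8.19 and 8.00 to 7.58, 7.62 and 7.67, at -0.47 ± 0.06 (adjusted p = 0.00041). SGSH, the N-sulfatase, was nearest to 0 in the class, at -0.01 ± 0.05 from 6.74, 6.73 and 6.84 in DMSO to 6.79, 6.78 and 6.71 with anlotinib, though 1 of its 4 probe sets fell, at -0.37. IDUA, the iduronidase that acts after IDS, was dim at 5.22 in DMSO and 5.10 with anlotinib and did not pass the test. GALNS, which acts on keratan and chondroitin sulfate, fell by 0.21 ± 0.05 on the log2 scale from a mean signal of 11.12. GUSB, the beta-glucuronidase, was lower on every treated array (-0.11 ± 0.04) but missed the threshold with an adjusted p of 0.0574. ARSB, the sulfatase of dermatan sulfate, gave 0.05 ± 0.11 at the brightest probe set, whereas 1 of its 4 probe sets, 11731768_x_at, fell from 6.45, 6.76 and 6.69 to 5.71, 5.89 and 5.99, at -0.77 (adjusted p = 0.000497).

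**Figure D3:**
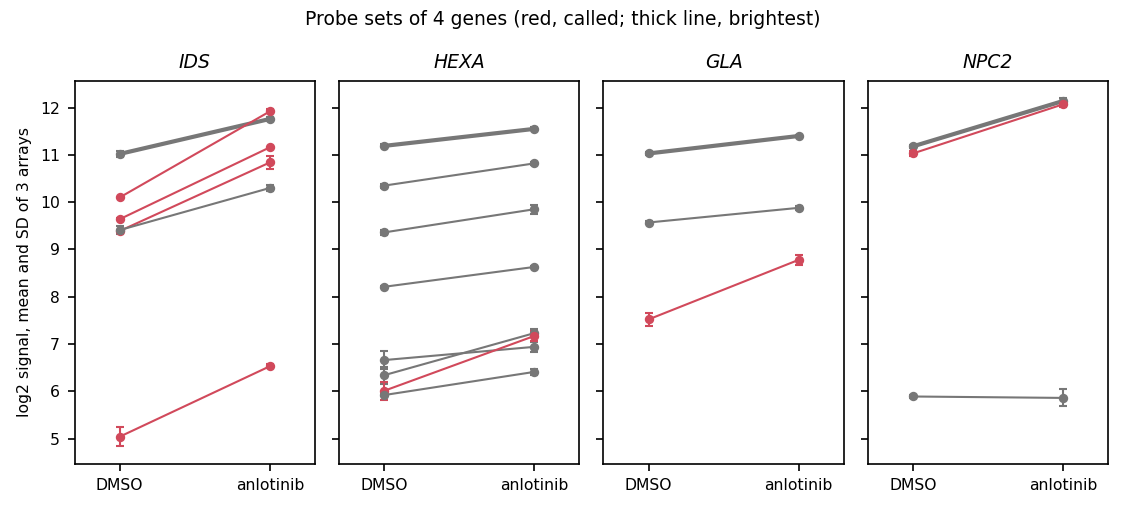
Mean log2 signal with SD (y axis) of each probe set of IDS, HEXA, GLA and NPC2 in DMSO and with anlotinib (x axis, 3 arrays each); red lines were called and the thick line is the brightest probe set. Signals of different probe sets are not levels to be compared, so the slopes are to be read: all 6 of IDS, 8 of HEXA and 3 of GLA point up, while 1 of the 3 of NPC2 stays near 5.9.

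In the sphingolipid group 5 of 8 members rose and 1 fell, with a median of 0.21. GLA, the alpha-galactosidase that clears globotriaosylceramide, read 11.07, 11.01 and 11.01 in DMSO and 11.39, 11.38 and 11.43 with anlotinib at its brightest probe set, a rise of 0.37 ± 0.04 (adjusted p = 0.000189). A dimmer probe set of GLA, 11760430_at, was the one called, going from 7.53, 7.65 and 7.37 to 8.71, 8.74 and 8.90, or 1.26 ± 0.08. HEXA, the alpha subunit of the hexosaminidase that degrades ganglioside GM2, likewise rose at all 8 of its probe sets, by 0.37 ± 0.04 at the brightest (adjusted p = 0.000213). The called one, 11760536_a_at, was among its dimmest and went from 5.93, 6.22 and 5.88 to 7.09, 7.14 and 7.28, or 1.16 ± 0.10. For both genes the call at 2-fold rested on 1 probe set, and the remaining probe sets gave 0.31 to 0.37 for GLA and 0.29 to 0.89 for HEXA.

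SMPD1, the acid sphingomyelinase, read 8.10, 8.08 and 8.21 in DMSO and 8.59, 8.49 and 8.54 with anlotinib, a rise of 0.41 ± 0.05 (adjusted p = 0.000366). PSAP, the precursor of the saposins that lift lipids from membranes for these enzymes, rose by 0.22 ± 0.04 from a mean signal of 13.74, and all 4 of its probe sets rose, by 0.18 to 0.27. GLB1, the beta-galactosidase of ganglioside GM1 and keratan sulfate, rose by 0.21 ± 0.05 and by 0.18 to 0.32 over its 3 probe sets. GALC, the galactosylceramidase that is lost in Krabbe disease, was the exception. It read 7.95, 7.99 and 7.99 in DMSO and 7.32, 7.19 and 7.45 with anlotinib, and fell by 0.66 ± 0.07 on the log2 scale (1.57-fold, adjusted p = 0.000159), with all 4 probe sets lower. ASAH1, the acid ceramidase, read 9.34, 9.37 and 9.42 in DMSO and 9.42, 9.36 and 9.36 with anlotinib and did not pass the test; 1 of its 5 probe sets rose, by 0.18. ARSA, the sulfatase of sulfatide, gave 0.08 ± 0.07, and its groups overlapped.

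The last class holds the enzymes and the carrier for sterols, thioesters and phosphate esters, of which 3 of 4 rose and 1 fell (median 0.32). NPC2, which hands cholesterol from the lumen to NPC1 in the lysosomal membrane, read 11.15, 11.22 and 11.18 in DMSO and 12.13, 12.09 and 12.20 with anlotinib at its brightest probe set. The rise of 0.96 ± 0.05 (1.95-fold, adjusted p = 5.12e-06) lay just under 2-fold, and the probe set 11716828_a_at lay just over it at 1.04 ± 0.05. The third probe set of NPC2 was dim, with 5.93, 5.87 and 5.87 in DMSO and 6.00, 5.66 and 5.92 with anlotinib, and did not pass the test. PPT1, which removes palmitate from proteins, rose at all 6 of its probe sets, by 0.48 to 0.61, and at the brightest from 11.25, 11.34 and 11.33 to 11.81, 11.77 and 11.77. LIPA, which splits the cholesteryl esters and triglycerides of lipoproteins, rose by 0.17 ± 0.04, from 11.86, 11.84 and 11.87 to 12.00, 12.05 and 12.03 (adjusted p = 0.00661). ACP2, an acid phosphatase long used as a lysosomal marker, fell from 9.60, 9.73 and 9.64 to 9.23, 9.17 and 9.21, at -0.46 ± 0.05 (adjusted p = 0.000154). Of its 9 probe sets 8 fell.

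Probe sets of 1 gene mostly pointed one way. Over the 119 probe sets, 57 rose and 35 fell, and 8 were called higher and 0 lower in limma. These counts weigh a gene by its number of probe sets. TPP1 gave 9 of those that rose, HEXA 8 and IDS 6, and ACP2 gave 8 of those that fell and LGMN 6. IDS alone gave 4 of the 8 calls. The share of all tested probe sets that rose, fell or were called was not counted. Of the 27 members with more than 1 probe set, 16 had all of them past the test in 1 direction, and 0 had some that rose and others that fell. The other 12 members rest on a single probe set, CTSL and NEU1 among them.

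Genes that serve the same hydrolases were read from 5 further lists at the brightest probe set. Of all genes 25.4% rose and 29.7% fell in this reading, the shares to set beside the counts below. Of 25 other lysosomal hydrolases 17 were measured, of which 5 rose (29.4%) and 4 fell (23.5%), with a median of -0.07. FUCA2, a second fucosidase, was at 0.59 and PLA2G15, the lysosomal phospholipase A2, at 0.58. Of 15 genes for sorting and maturation 13 were measured, of which 6 rose (46.2%) and 5 fell (38.5%), with a median of 0.06. Both receptors for the mannose 6-phosphate tag rose, M6PR by 0.39 ± 0.04 and IGF2R by 0.26 ± 0.04, as did CLN8, an escort of the enzymes out of the endoplasmic reticulum, by 0.76 ± 0.06. SORL1, a sorting receptor of the Golgi and endosomes, fell by 0.62 ± 0.04 on the log2 scale. Probe sets of 1 gene differed in this list. IGF2R gave 0.78 at its highest probe set. SCARB2 and CLN6, counted among those that fell, gave -0.19 and -0.29 at the brightest but 0.50 and 0.76 at their highest. GGA1 gave -0.10 at the brightest, which did not pass the test, and 0.74 at its highest. M6PR, IGF2R, SCARB2, CLN6 and GGA1, like CST3, TFEB, LAMP2 and SLC38A9 below, were named after their values were seen.

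Of 11 inhibitors of cathepsins 9 were measured, and 2 rose (22.2%) and 1 fell (11.1%). The 2 were the stefins, which act in the cytosol on papain-like cathepsins: CSTB read 12.67, 12.69 and 12.67 in DMSO and 13.40, 13.38 and 13.40 with anlotinib, at 0.71 ± 0.04, and CSTA rose by 0.67 ± 0.05. The secreted inhibitor CST3 gave -0.05 ± 0.05 and did not pass. Among the factors that bind the CLEAR element, TFE3 rose by 0.40 ± 0.06 and MITF by 0.22 ± 0.06, while TFEB gave -0.05 ± 0.08 and did not pass the test. The other probe set of MITF gave -0.08. Of 9 membrane proteins of the lysosome, 8 rose (88.9%) and 1 fell (SLC38A9, an amino acid sensor, at -0.15), with a median of 0.65. LAMP2 rose by 0.80 at its brightest probe set, while its lowest gave -0.27. MCOLN1, the calcium channel mucolipin, was called, from 8.80, 8.81 and 8.72 to 9.86, 9.87 and 9.86 (1.09 ± 0.04), and TMEM192 followed at 0.84 from a dim signal of 4.90. The difference between the lists was not tested.

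**Figure D4:**
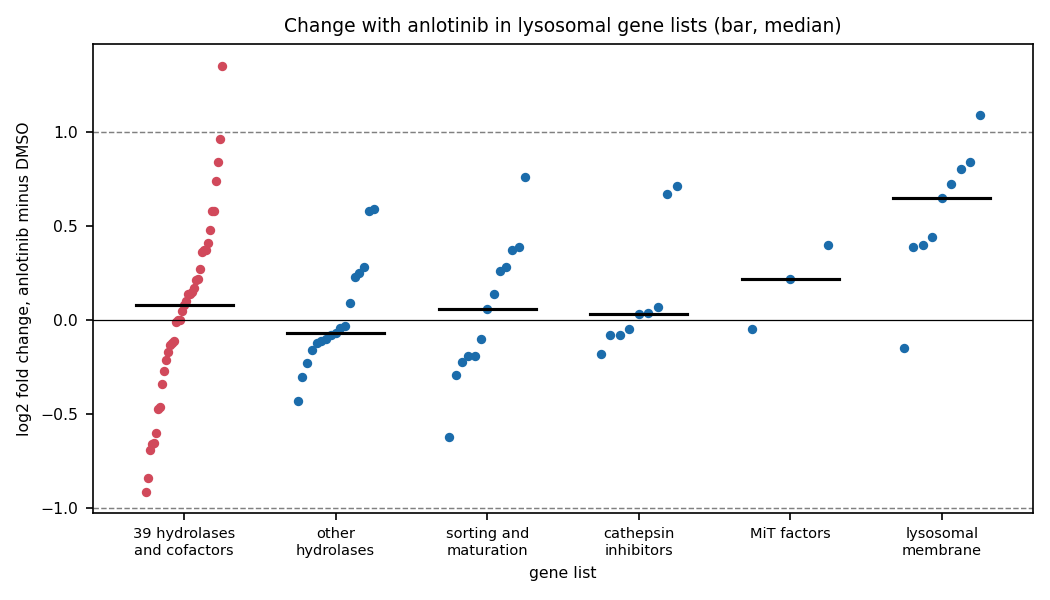
log2 fold change (y axis, anlotinib minus DMSO, brightest probe set) of the 39 hydrolases and cofactors and of 5 related lists (x axis), 1 point a measured gene, sorted within each list; bars are medians and dashed lines mark 2-fold. The members run from -0.91 to 1.35 around a median of 0.08, and 8 of 9 lysosomal membrane genes lie above 0.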

How the data were processed

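RNA of PANC-1 cells from 3 DMSO and 3 anlotinib samples was measured on PrimeView arrays. The log2 values were made and deposited by the authors with RMA (background adjustment, normalization between arrays, summary per probe set), and scanner files were not used here. The deposited table holds 39219 probe sets, the number the paper gives after its own filters on the lowest 20% of signals and on a coefficient of variation over 25% within a class, whose scale it does not name. A limit of 25% on the linear scale, set here in addition, left out 83 probe sets, and 73 controls were left out too. The groups were compared by limma (version 3.58.1, R version 4.3.3; lmFit, eBayes) with Benjamini-Hochberg adjustment across 39063 probe sets; calls needed 2-fold and an FDR under 0.05. An exact two-sided permutation test of 3 against 3 cannot go below p = 0.1. The number of arrays limits the precision. Genes came from the array annotation, updated by entrez identifier for 35843 of 35858 probe sets with 1 gene.

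Members and lists were chosen with earlier results of these data known. Values on all arrays were given for members with a called probe set, for most of up to 4 further members a class with the largest change at an FDR under 0.05, and for the member nearest to 0; other members are named with their fold change. In each related list the called genes and the 2 with the largest change were named. Alternatives were no or a log2 coefficient of variation filter, a 40% signal filter, a second quantile normalization, centring, 1.5-fold, treat at 1.2-fold, eBayes with trend and robust, the replicate number as a block, exclusion of cross-hybridizing probe sets, the median or the smallest p per gene, and each array left out. The fits were tested on simulated data.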

Additional observations from a re-analysis of the deposited data

How the results depend on the processing

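Signals near the lower end limit what can be read, as do 15 brightest probe sets whose suffix marks possible cross-hybridization. Over 29 members, 481 of their recomputed values kept direction and side of the threshold, 22 lost the threshold, 3 gained it and 11 changed sign. The median of the members, 0.08, was 0.12 without the lowest 40% of signals, 0.06 after a second quantile normalization, 0.03 without cross-hybridizing probe sets, 0.03 with the median per gene, 0.14 with the smallest p, and 0.04 to 0.13 with single arrays left out. At 1.5-fold, 4 members were called higher (7.37% of all genes) and 6 lower (7.71%) at the brightest probe set, and 9 (11.6%) and 7 (10.4%) at any. Under treat, with no further fold limit, these counts were 7 (11.9%), 8 (13.1%), 10 (17.2%) and 9 (16.4%). Higher calls at the brightest probe set were 2 (CTSL, IDS) without cross-hybridizing probe sets, 3 (CTSL, IDS, NPC2) with the median and 5 with the smallest p. The median of the glycogen and glycoprotein enzymes turned from 0.10 to -0.12 without cross-hybridizing probe sets, with MAN2B1 then not measured. Without the lowest 40% 4 members were called at any probe set, since the called probe set of HEXA was removed. With single arrays left out, higher calls stayed at 5 and 1, and 15 to 17 members rose and 11 to 13 fell. CTSD missed the threshold without DMSO replicate 2 (adjusted p = 0.0911) or 3 (0.074) and without anlotinib replicate 2 (0.0866) or 3 (0.0588), and after centring (0.0599). SCPEP1 missed it without DMSO replicate 1 (0.0746), 2 (0.0612) or 3 (0.125) and without anlotinib replicate 1 (0.121) or 3 (0.0817). CTSV missed it without DMSO replicate 1 (0.0873) or 2 (0.0808) and without anlotinib replicate 2 (0.088) or 3 (0.0722). Signs turned only for genes near 0: ASAH1 was -0.00 after the second normalization, -0.01 centred, -0.05 with the median and -0.01 without DMSO replicate 1 or anlotinib replicate 1 (range -0.01 to 0.03). With single arrays left out, CTSC ranged from -0.02 to 0.01 and SGSH from -0.03 to 0.02. CTSC was 0.14 with the smallest p, 0.01 without DMSO replicate 2 or anlotinib replicate 1 and 0.00 without anlotinib replicate 2; SGSH was 0.02 without DMSO replicate 3 and 0.01 without anlotinib replicate 3. The cause was not tested.

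Deviations from the group mean in same-numbered samples had correlations of 0.169, 0.00643 and -0.143 for replicates 1, 2 and 3. With 3 arrays a group, these values cannot show whether the numbers pair the samples. With the replicate number as a block, calls stayed at 5 and 1 higher and 0 lower, the median stayed at 0.08, and 15 members rose and 11 fell, with CTSD, SCPEP1 and CTSV no longer past the threshold (adjusted p = 0.0692, 0.0593 and 0.0542). The called probe sets of CTSL, IDS, NPC2, GLA and HEXA were recomputed under each alternative, a step added after the data had been seen. They kept their direction and call wherever they were measured. These probe sets had been chosen for their call on the same arrays, so this is no independent check.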
